A study of Mus musculus with 9 samples.

Results

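The mitochondrially encoded genes are the genes carried by the mitochondrial chromosome itself. They were taken as every gene whose GENCODE M21 symbol starts with mt-, which gave 37 of the 56398 features in the count table. Of these, 13 are mRNAs, 2 are rRNAs and 22 are tRNAs. RNA was sequenced from 9 BALB/c mouse libraries in 3 groups of 3. The sham group was healthy colon. The model group was labelled colon tumour, from mice injected with CT26 cells, a mouse colon carcinoma line, and given saline. The AC group was the same kind of tumour from mice given Astragalus and Curcuma phaeocaulis at 2 parts to 1. Saline and the herb pair were both given once a day at 6 g/kg. The labels do not say where the cells were injected or whether the samples of a group were separate animals. All p-values therefore rest on the variation among these libraries alone, and part or all of it may be technical.

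The mitochondrial chromosome encodes core subunits of the respiratory chain and of ATP synthase, together with the rRNAs and tRNAs needed to translate them inside the organelle. Both of its strands are transcribed as long precursors, from which tRNAs are cut out so that the flanking mRNAs and rRNAs are released. Every other protein of the chain, and every factor that transcribes, processes or translates mitochondrial RNA, is encoded in the nucleus. In colon, absorptive epithelial cells are rich in mitochondria.

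The 13 mRNAs comprise 7 subunits of complex I (NADH dehydrogenase), 1 of complex III, 3 of complex IV (cytochrome c oxidase) and 2 of complex V (ATP synthase). The heavy-strand set, read in the direction of most mitochondrial genes, holds 28 members with 12 of the mRNAs. The other 9 are mt-Nd6 and 8 tRNAs. A count was seen for 31 of the 37 in at least 1 library, and 22 passed the filter on low counts in each comparison: all 13 mRNAs, both rRNAs and 7 tRNAs.

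Some mitochondrial genes have near-identical copies in the nuclear genome, and reads from a gene and its copy cannot always be told apart. A run of 7 annotated copies on chromosome 1, from 24611535 to 24616197 on GRCm38, mirrored the mitochondrial stretch from 6390 to 11042 at 99.7% to 100% identity. Together they covered over 99% of mt-Co2, mt-Atp6, mt-Co3, mt-Nd3 and mt-Nd4l, 63.6% of mt-Nd4, 31.3% of mt-Co1 and 21.1% of mt-Atp8. No such copy was found for mt-Nd1, mt-Nd2, mt-Nd5, mt-Nd6 or mt-Cytb. Only annotated genes were searched, so any copied bases between them, such as those facing the rest of mt-Atp8, would not be seen. The first 60 bases of mt-Nd3 (chrM:9459-9518, plus strand) and of its copy Gm28438 (chr1:24613060-24613119, minus strand) are shown because they hold the single difference between them. It is T3C, counted from 1 at the 5′ end of mt-Nd3, and is in capitals. Sequences are from the GENCODE M21 transcripts.
mt-Nd3: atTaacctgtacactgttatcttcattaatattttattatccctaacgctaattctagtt
Gm28438: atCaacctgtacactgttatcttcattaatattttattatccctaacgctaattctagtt

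For mt-Co1, the most abundant member, 60 bases (chrM:6448-6507, plus strand) are set beside the chromosome 1 copy Gm29216 (chr1:24616071-24616130, minus strand) and the more distant chromosome 2 copy Gm13340 (chr2:22588468-22588527, minus strand). They were chosen because a read within them can differ from the second copy but not from the first. Capitals mark C1134T, T1179C and G1180A, counted from the 5′ end of mt-Co1, at which Gm13340 differs. Gm29216 matched mt-Co1 at every base of this window.
mt-Co1: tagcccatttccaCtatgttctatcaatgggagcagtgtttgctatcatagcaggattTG
Gm29216: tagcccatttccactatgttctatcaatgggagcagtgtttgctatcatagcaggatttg
Gm13340: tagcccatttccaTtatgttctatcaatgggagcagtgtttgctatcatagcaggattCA

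Neighbouring members also share bases. The last 43 bases of mt-Atp8 are the first 43 of mt-Atp6, and the last 7 of mt-Nd4l are the first 7 of mt-Nd4. The stretches below (chrM:7910-7969 and chrM:10144-10173, plus strand) print the shared bases in capitals, each starting at the ATG of the downstream gene. How strand was used in the counting is not stated in those sources, so reads in overlaps, and reads of genes lying on opposite strands, may have been assigned to either gene.
mt-Atp8: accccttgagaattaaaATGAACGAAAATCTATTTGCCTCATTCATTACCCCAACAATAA
mt-Nd4l: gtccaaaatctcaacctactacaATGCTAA

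Total counts ran from 15690038 to 23476056 per library, so that 3 counts, the floor used for a gene that was not detected, were worth 0.128 to 0.191 CPM (counts scaled to library size). Summed epithelial markers ran from 15770 to 20590 CPM in sham libraries and from 222 to 1039 CPM in tumours. Macrophage markers ran the other way, from 43.3 to 87.4 CPM in sham and from 988 to 1694 CPM in tumours, as did fibroblast markers, from 121 to 195 CPM and from 1495 to 2630 CPM. No marker of these lists was at 0 in all 3 libraries of a group. Sham 1 stood apart in its group, with B and plasma cell markers at 1253 CPM against 177 and 123 in sham 2 and 3, and smooth muscle markers at 229 CPM against 1310 and 1381. In bulk tissue, fewer cells of a type and less RNA per cell cannot be told apart, and the part of cell makeup in the results below was not tested.

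Mitochondrially encoded genes took 8.63%, 7.01% and 7.14% of the counts in sham 1, 2 and 3. They took 2.41%, 2.47% and 2.29% in the model tumours and 2.46%, 2.39% and 2.65% in the AC tumours. Every sham library lay above every tumour library, and the model and AC ranges overlapped. The rRNAs, the RNA parts of the mitochondrial ribosome, were 1.05% of counts in sham 1 against 0.460% and 0.428% in sham 2 and 3. They were 0.107% to 0.236% in the 6 tumour libraries, of which AC 3 was the highest. Relative to mRNA, rRNA counts per 100 mRNA counts were 13.9 in sham 1 and 9.78 in AC 3, and 4.71 to 8.45 in the other libraries. These counts depend on which RNAs the library preparation kept, so they do not measure mature rRNA against mRNA in the tissue. The part of that step in the rRNA and tRNA results below was not tested.

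**Figure D1:**
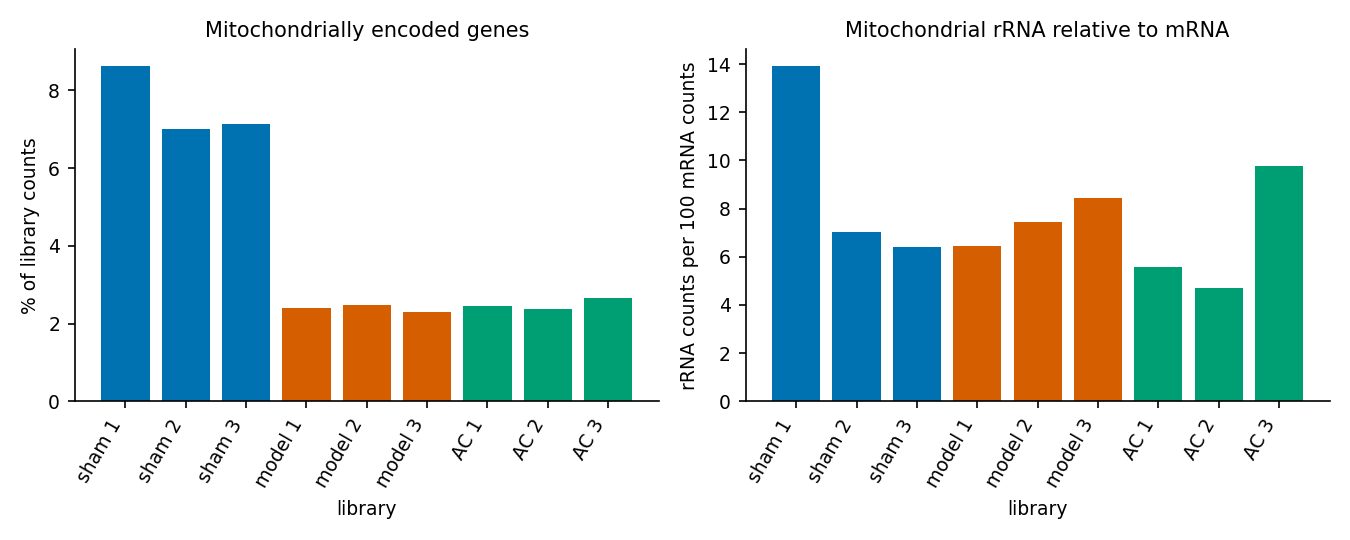
Share of all counts in the 37 mitochondrially encoded genes (left, percent) and mitochondrial rRNA counts per 100 mitochondrial mRNA counts (right) in each of the 9 libraries; each bar is 1 library. The sham bars on the left (7.01% to 8.63%) stand above all tumour bars (2.29% to 2.65%), and on the right sham 1 (13.9) and AC 3 (9.78) are the highest.

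Levels per length were compared with FPKM, the authors' counts scaled to gene length and to library total. In all 3 groups mt-Co1, the catalytic subunit of cytochrome c oxidase, had the highest level, and its range did not overlap that of the gene next below it. In sham the mean was 30372 FPKM ± 1516 (SD, n = 3), followed by mt-Nd1 at 6920 ± 1834 and mt-Cytb at 5995 ± 855. The ranges of those followers overlapped. In the tumours the order of the followers was reversed and the ranges were apart, with mt-Cytb at 3285 ± 86.4 and mt-Nd1 at 2186 ± 372 in the model group and 3593 ± 161 and 2119 ± 84.6 in the AC group. A middle set held mt-Nd2, mt-Nd4, mt-Nd5, mt-Nd6 and both rRNAs. In sham, mt-Nd4, mt-Rnr1, mt-Nd6, mt-Nd2 and mt-Nd5 each overlapped the gene ranked just above.

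The lowest mRNA levels belonged to genes in or beside the copied stretch. The 5 mRNAs covered over 99% by chromosome 1 copies reached at most 299 FPKM in sham, 69.8 in model and 54.9 in AC libraries. The 5 mRNAs without such a copy reached 9037, 3384 and 3699 FPKM, and none of their values was below 982. mt-Co2 and mt-Co3, which encode subunits of the same complex as mt-Co1, had sham means of 192 ± 29.2 and 185 ± 82.0 FPKM. mt-Atp8, which lies between copies, had 14.2 ± 3.79, mt-Nd4l 14.0 ± 2.33 and mt-Nd3 8.93 ± 5.90 FPKM.

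**Figure D2:**
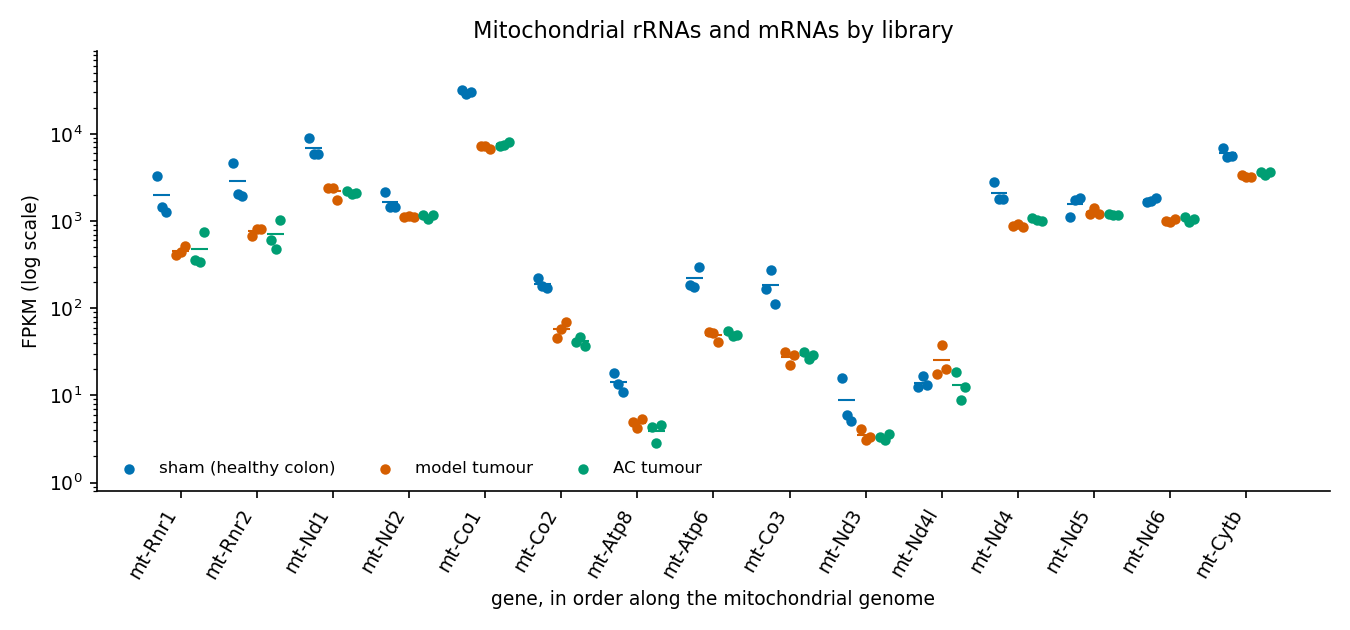
FPKM (log axis) of the 2 rRNAs and 13 mRNAs in order along the mitochondrial genome; points are single libraries, coloured by group, and short lines are group means over 3 libraries. mt-Co1 is the highest gene in each group, the genes from mt-Co2 to mt-Nd4l lie at 299 FPKM or lower, and sham points lie above tumour points for most genes.

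The copies themselves held counts. Of the counts of mt-Co2 and Gm28661 together, the copy held 20.1% to 34.9% over the 9 libraries. The share was 33.6% to 55.8% for Gm10925 (mt-Atp6), 26.0% to 55.7% for Gm28437 (mt-Co3), 39.6% to 68.5% for Gm10222 (mt-Nd4l) and 87.8% to 93.8% for Gm28438 (mt-Nd3). For mt-Co1 and mt-Nd4, whose copies cover only a part, it was at most 0.193% and 0.894%. The values of mt-Co2, mt-Atp6, mt-Co3, mt-Nd3, mt-Nd4l and mt-Atp8 are therefore given as uncertain throughout, since the counting may have split or dropped their reads. The same may hold for the covered parts of mt-Co1 and mt-Nd4. Their low copy shares are over the whole gene and do not show whether reads in those parts were kept.

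**Figure D3:**
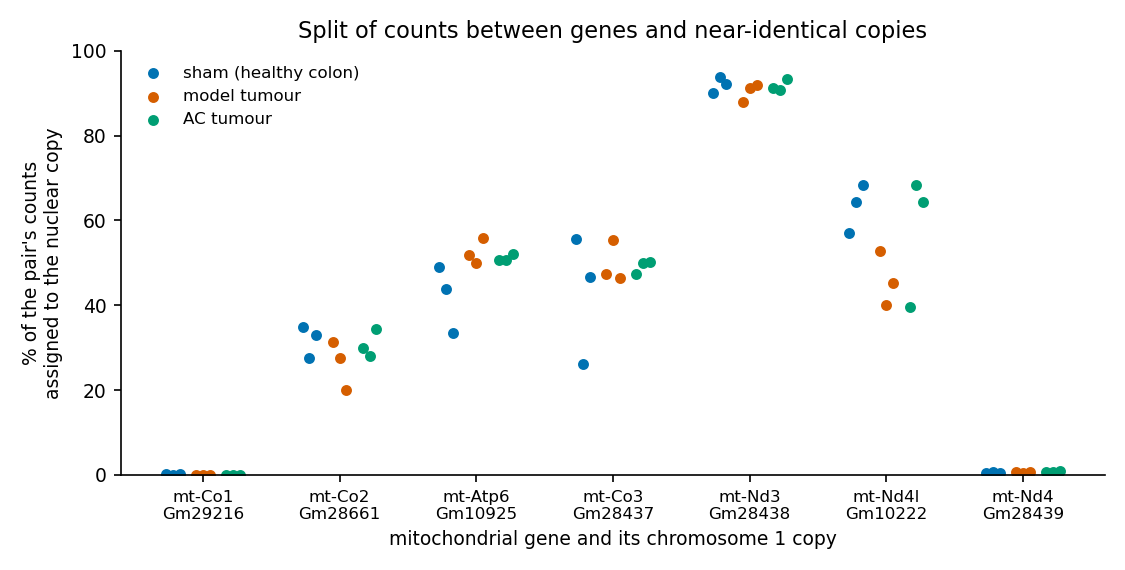
Percent of the counts of each mitochondrial gene and its chromosome 1 copy that were assigned to the copy; each point is 1 library, coloured by group. The copy's share runs from 20.1% to 93.8% for the 5 fully covered genes and stays at or under 0.894% for mt-Co1 and mt-Nd4.

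In model tumours against healthy colon, 21 of the 22 tested members fell and none rose. Of all genes tested, 69.7% were called, 32.9% lower and 36.8% higher. The fallen members were 12 of 13 mRNAs, both rRNAs and all 7 tested tRNAs. Their median log2 fold change over the 22 was -2.20, beside 0.12 over all genes. Groups did not overlap for 20 of the 22, against 79.9% of all genes. For mt-Nd4l, which is among these, the model tumours lay above sham in FPKM. Scaling matters for the size: TMM raised the effective library size of tumours over that of colon, and without scaling factors the median over all genes was 0.72 and 17 members fell. Over all genes, 9060 were then higher and 4405 lower, in place of 6700 and 5997. The members that then lost their call were mt-Nd3, mt-Nd5, mt-Th and mt-Ts2. FPKM values carry no such factors, so the log2 fold changes against sham given below show larger falls than the FPKM beside them. For mt-Nd5 the value was -0.92 with TMM and -0.30 without scaling factors.

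Among the complex IV mRNAs, mt-Co1 stood at 32041, 29080 and 29996 FPKM in the sham libraries and at 7262, 7347 and 6793 in the model tumours. The groups were far apart, and mt-Co1 fell by 2.70 on the log2 scale (SE 0.162, adjusted p = 3.65e-05), 6.48-fold lower after TMM scaling. mt-Co2, the subunit that takes electrons from cytochrome c, fell by 2.34 (SE 0.173, adjusted p = 7.07e-05), from 172 to 225 FPKM in sham to 46.1 to 69.8. mt-Co3 fell by 3.33 (SE 0.364, adjusted p = 0.000317), from 113 to 274 FPKM to 22.6 to 31.8. The copies of the last 2, Gm28661 and Gm28437, fell by 2.77 and 2.89. Each matches its gene at 100% identity, so reads may be shared between them and the falls of the copies are not separate support.

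For complex III, mt-Cytb, which encodes cytochrome b, stood at 6981, 5465 and 5539 FPKM in sham and at 3384, 3245 and 3227 in the model tumours. It fell by 1.47 (SE 0.164, adjusted p = 0.000331), and the groups were apart. For complex V, mt-Atp6, the subunit that forms part of the proton channel, fell by 2.78 (SE 0.279, adjusted p = 0.000227). mt-Atp8 fell by 2.13 (SE 0.319, adjusted p = 0.00114), from 10.8 to 18.3 FPKM to 4.28 to 5.35.

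The 7 complex I mRNAs differed most among themselves. mt-Nd1 stood at 9037, 5895 and 5828 FPKM in sham and at 2403, 2399 and 1756 in model tumours, and fell by 2.26 (SE 0.257, adjusted p = 0.000374). Its neighbour mt-Nd2 stood at 2147, 1432 and 1443 FPKM in sham and at 1125, 1129 and 1103 in model tumours, and fell by 1.18 (SE 0.194, adjusted p = 0.00174). Both encode membrane-arm subunits, and the groups were apart for both. mt-Nd4 fell by 1.86 (SE 0.210), mt-Nd3 by 1.91 (SE 0.501) and mt-Nd6, the mRNA of the other strand, by 1.37 (SE 0.140).

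mt-Nd5, which encodes a large proton-pumping subunit, was at 1118, 1746 and 1861 FPKM in sham and at 1206, 1408 and 1213 in model tumours. Sham 1 lay below all 3 model tumours, so the groups overlapped. mt-Nd5 fell by 0.92 (SE 0.245, adjusted p = 0.0139), a call that was lost without model 2 (adjusted p = 0.0524) or model 3 (0.0753). mt-Nd3 did so as well, at 0.0537 without model 2 and 0.0550 without model 3, and its log2 value was -1.28 without sham 1. mt-Nd4l was at 12.4 to 16.7 FPKM in sham and at 17.8 to 37.7 in model tumours, with a log2 fold change of 0.23 (SE 0.359, adjusted p = 0.581). It had only 59 to 218 counts in those libraries, and with its copy's counts added the value was -0.38.

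The small-subunit rRNA mt-Rnr1 was at 3261, 1449 and 1268 FPKM in sham and at 405, 446 and 524 in model tumours. It fell by 2.72 (SE 0.377, adjusted p = 0.000850), and by 2.21 without sham 1. The large-subunit rRNA mt-Rnr2 was at 4677, 2033 and 1940 FPKM in sham and at 678, 814 and 809.5 in model tumours. It fell by 2.51 (SE 0.365, adjusted p = 0.00104), and by 2.01 without sham 1, the library with the high B and plasma cell markers.

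The tRNAs gave few counts, 12759 over the 9 libraries, and 6 had no count in any: mt-Tf, mt-Tv, mt-Ts1, mt-Td, mt-Tk and mt-Tg. A further 9 had 1 to 99 counts and 7 had 100 or more. Whether tRNA counts came from mature tRNAs or from longer precursors was not tested. Of the 5 tRNAs inside the copied stretch 4 were at 0, as were 2 of the 17 outside it. The light-strand genes mt-Tp, mt-Tn and mt-Tc, for proline, asparagine and cysteine, held 89.3% of all tRNA counts. Their whole sequences, and that of mt-Tt, the heavy-strand neighbour of mt-Tp, are given because neighbouring tRNAs of like length differed so widely in counts. They are mt-Tp (chrM:15356-15422, minus strand), mt-Tt (chrM:15289-15355, plus strand), mt-Tn (chrM:5089-5159, minus strand) and mt-Tc (chrM:5192-5257, minus strand).
mt-Tp: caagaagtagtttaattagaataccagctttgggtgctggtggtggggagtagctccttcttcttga
mt-Tt: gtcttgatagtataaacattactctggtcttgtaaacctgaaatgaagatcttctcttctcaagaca
mt-Tn: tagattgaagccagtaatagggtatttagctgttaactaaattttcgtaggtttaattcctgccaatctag
mt-Tc: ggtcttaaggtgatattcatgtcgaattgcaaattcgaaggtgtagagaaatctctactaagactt

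mt-Tp was at 2993, 1904 and 1819 FPKM in sham and at 224, 210 and 146 in model tumours, while mt-Tt did not exceed 2.71 FPKM in any library. mt-Tp fell by 4.12 (SE 0.295, adjusted p = 6.38e-05), mt-Tn by 4.04 (SE 0.707) and mt-Tc by 4.28 (SE 0.700). Without sham 1 the value was -3.29 for mt-Tn and -3.38 for mt-Tc. These were the largest falls among the tested members. Sham 1 was again the highest library, with mt-Tn at 471 FPKM against 188 and 103. The other tested tRNAs, mt-Tl1, mt-Tl2, mt-Th and mt-Ts2, fell by 1.19 to 2.39. Without model 2 the value for mt-Tl1 was -3.30 in place of -2.39. The call for mt-Ts2, the smallest of these, was lost on leaving out sham 1, sham 2, model 1, model 2 or model 3 (adjusted p = 0.0504 to 0.121). mt-Te, on the same strand as mt-Nd6, did not pass the filter against sham, and was at 3.61, 3.38 and 6.54 FPKM in sham and at 10.5, 5.21 and 13.2 in model tumours, ranges that overlapped. In AC tumours it was at 7.29, 9.24 and 16.2 FPKM, above all sham libraries, with at most 18 counts in any library.

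In AC tumours against the same sham libraries, 20 of 22 members fell and none rose, beside 68.2% of all genes called and 32.7% called lower. The median was -2.35, against 0.10 over all genes, and groups were apart for 19 of 22, against 79.3% of all genes. Without scaling factors the median over all genes was 0.75, with 8832 genes higher and 4114 lower in place of 6339 and 5826, and 18 members fell. mt-Nd5 and mt-Th then lost their call. Because both tumour groups were compared with the same colon libraries, their values are given side by side and not as separate support. mt-Co1 was at 7313, 7519 and 8139 FPKM in the AC tumours and fell by 2.64 (SE 0.143, adjusted p = 4.55e-05). mt-Co2 fell by 2.85, mt-Co3 by 3.32, mt-Atp6 by 2.77 and mt-Atp8 by 2.48.

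mt-Cytb, at 3699, 3408 and 3673 FPKM in the AC tumours, fell by 1.39 (SE 0.152, adjusted p = 0.000384). Of the complex I mRNAs, mt-Nd1 fell by 2.35, mt-Nd2 by 1.20, mt-Nd3 by 2.03, mt-Nd4 by 1.69, mt-Nd5 by 1.07 and mt-Nd6 by 1.36. mt-Nd4l had a log2 fold change of -0.73 (adjusted p = 0.107), which passed the threshold without sham 1 (adjusted p = 0.0456). mt-Rnr1 was at 361, 337 and 751 FPKM and mt-Rnr2 at 601, 475 and 1036, with AC 3 the highest in both. Their log2 fold changes were -2.67 (adjusted p = 0.00337) and -2.66 (adjusted p = 0.00261), and without AC 3 they were -3.14 and -3.05. AC 3 also had the highest epithelial marker sum of the tumours, 1039 CPM against 336 and 308 in AC 1 and 2. Among the model tumours, model 1 had the highest sum, 564 CPM against 254 and 222 in model 2 and 3. Its rRNA share was the lowest of that group, 0.146% of counts against 0.171% and 0.178%. The part of epithelial content in the rRNA levels was not tested. Of the tRNAs, after TMM scaling, mt-Tp was 12.1-fold lower, mt-Tn 26.3-fold (-4.72) and mt-Tc 21.6-fold (-4.43). Without sham 1 the log2 value was -4.06 for mt-Tn and -3.63 for mt-Tc. mt-Ts2 was not called (-0.96, adjusted p = 0.112).

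**Figure D4:**
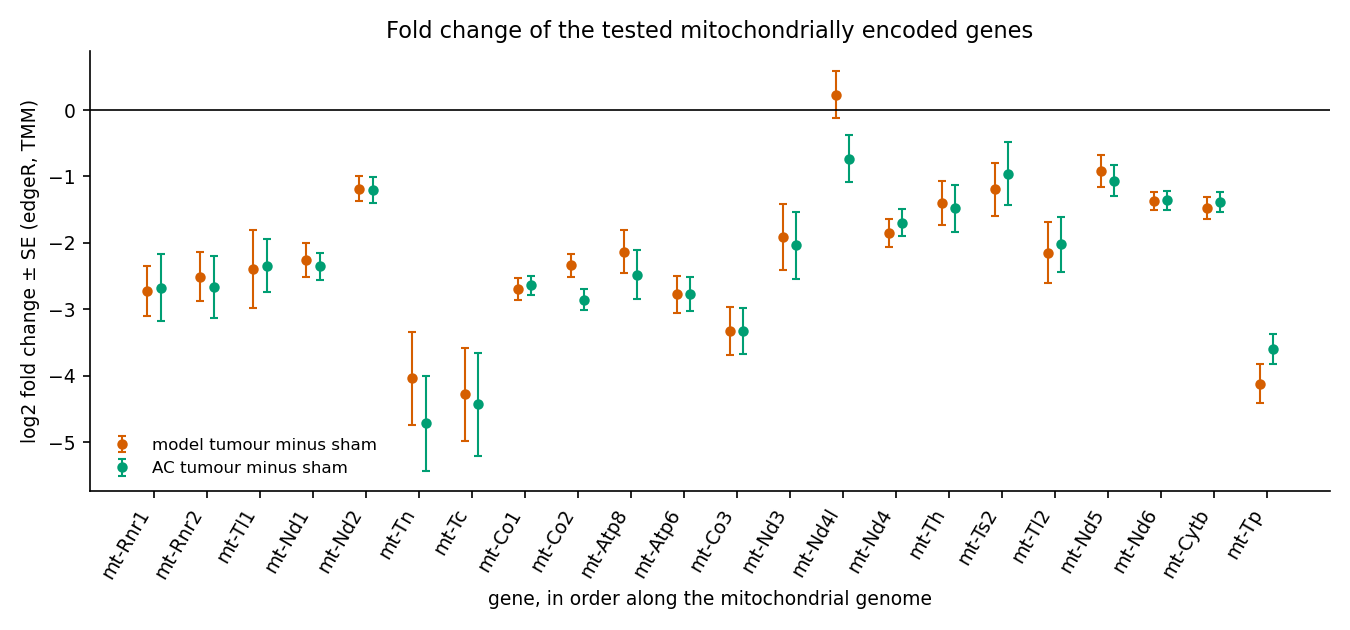
log2 fold change with its SE (edgeR, TMM) of the 22 tested members in model and AC tumours against sham, in order along the mitochondrial genome; both series share the 3 sham libraries. Values run from -4.72 (mt-Tn, AC) to 0.23 (mt-Nd4l, model), and mt-Tn, mt-Tc and mt-Tp lie lowest.

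Whether members fell by different amounts was tested by refitting every gene with the library scale set to the geometric mean of the 13 mitochondrial mRNA counts. A value of 0 then means that a gene moved with the mRNAs as a set. The 13 mRNAs are both the scale and tested members, so their values average about 0. Lower values for some of them force higher values for others, and their calls are not separate results. Each mRNA weighs the same in the scale, also the uncertain mt-Co2, mt-Atp6, mt-Co3, mt-Nd3, mt-Nd4l and mt-Atp8. In model tumours against colon, 8 of 22 members were lower and 5 higher on this scale, beside 85.1% of all genes called, 13.6% lower and 71.5% higher. In AC tumours against colon 7 were lower and 5 higher, beside 85.4%, 12.5% and 72.9%. The higher members in both were mt-Nd2, mt-Nd4l, mt-Nd5, mt-Nd6 and mt-Cytb, and the lower ones in both were mt-Co1, mt-Co2, mt-Atp6, mt-Co3, mt-Tn, mt-Tc and mt-Tp. mt-Rnr1 was called lower in model tumours (-0.85, adjusted p = 0.0344) and was not called in AC tumours (-0.68, adjusted p = 0.155). The call in model tumours was lost without model 1 (adjusted p = 0.0990), model 2 (0.104) or model 3 (0.0577). The difference between those values was not tested.

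On this scale mt-Co1 had a log2 fold change of -0.88 (SE 0.132) in model and -0.67 (SE 0.143) in AC tumours, and mt-Co3 -1.50 and -1.36. mt-Nd2 had 0.65 (SE 0.148) and 0.77 (SE 0.153), and mt-Tp -2.30 and -1.61. The calls of mt-Nd2, mt-Co1, mt-Co3, mt-Tn, mt-Tc and mt-Tp were kept in both comparisons whichever library was left out, although without sham 1 the model values were -1.51 for mt-Tn and -1.61 for mt-Tc in place of -2.17 and -2.41, and the AC values -2.06 and -1.62 in place of -2.72 and -2.40. Other calls were lost on leaving out 1 library. In model tumours these were mt-Co2 (without sham 2, sham 3, model 1 or model 2), mt-Atp6 (model 3), mt-Nd5 (model 2 or 3), mt-Nd6 (sham 2 or any model library) and mt-Cytb (sham 2, sham 3 or any model library), with adjusted p = 0.0532 to 0.156. In AC tumours they were mt-Atp6 (without sham 3 or any AC library), mt-Nd4l (AC 1) and mt-Nd5 (AC 2), with adjusted p = 0.0553 to 0.0704. The higher calls rest on the reference. With the 5 mRNAs lacking a near-identical copy as the scale, 1 member (mt-Nd4l) was higher in model tumours and 0 in AC tumours. Of all genes, 65.7% and 66.1% were then higher. mt-Nd1, mt-Nd2, mt-Nd5, mt-Nd6 and mt-Cytb make up that scale, so their values on it average about 0 by construction. The loss of the higher calls of mt-Nd2, mt-Nd5, mt-Nd6 and mt-Cytb was thus largely fixed in advance and is no separate test. On that scale mt-Co1, mt-Co2, mt-Co3, mt-Atp6, mt-Tn, mt-Tc and mt-Tp were still lower in both comparisons, mt-Co1 by -1.27 and -1.18.

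Ratios per length need no scaling, but they come from the same counts and are not separate support. mt-Co1 over mt-Cytb in FPKM was 4.59, 5.32 and 5.42 in sham, 2.15, 2.26 and 2.11 in model and 1.98, 2.21 and 2.22 in AC libraries. mt-Nd1 over mt-Nd2 was 4.21, 4.12 and 4.04 in sham, 2.14, 2.12 and 1.59 in model and 1.89, 1.93 and 1.79 in AC libraries. All sham values lay above all tumour values in both ratios, and neither numerator nor denominator except mt-Co1 has a near-identical copy. mt-Nd5 over mt-Nd6, genes on opposite strands that overlap, was 0.680 in sham 1 and 1.02 in sham 2 and 3, and 1.08 to 1.43 in tumours. mt-Rnr2 over mt-Rnr1 was 1.40 to 1.53 in sham and 1.38 to 1.83 in tumours, ranges that overlapped.

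By complex, the shares of mitochondrial mRNA counts differed between colon and tumours for complexes I, III and IV, with no overlap. Complex IV mRNAs held 65.9% to 69.5% in sham and 48.9% to 52.4% in tumours. Complex I held 20.8% to 23.3% and 30.0% to 34.1%, and complex III 9.46% to 10.6% and 16.1% to 18.2%. Complex V, with only the uncertain mt-Atp6 and mt-Atp8, held under 0.308% in each library. mt-Co1 alone was 57.4%, 64.1% and 64.9% of all mitochondrial counts in sham and 45.9% to 48.6% in tumours. It made up nearly all complex IV counts, with 795945 in sham 1 against 2476 for mt-Co2 and 2109 for mt-Co3. The shares are parts of a whole, so a fall of mt-Co1 alone raises those of complexes I and III. The shifts by complex are therefore not separate results.

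Between AC and model tumours, 0 of the 22 tested members were called in either direction. No gene of 17137 was called by edgeR (0.0% called), although 2253 had an unadjusted p under 0.05, and DESeq2 called 305 genes, none of them a member. The median over the members was 0.00, with 3 at an unadjusted p under 0.05. These were mt-Co2 (-0.51, SE 0.159, adjusted p = 0.279), mt-Nd4l (-0.96, SE 0.373, adjusted p = 0.338) and mt-Tp (0.55, SE 0.192, adjusted p = 0.304). Groups were apart for 3 members, mt-Nd4, mt-Cytb and mt-Tp, all higher in AC tumours, against 19.2% of all genes. mt-Tp was at 300.2, 311 and 257 FPKM in AC and at 224, 210 and 146 in model tumours.

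For mt-Co1 the AC against model value was 0.07 (SE 0.0924), and for mt-Cytb 0.10 (SE 0.0816). The rRNA values were less precise, 0.05 (SE 0.340) for mt-Rnr1 and -0.15 (SE 0.290) for mt-Rnr2. Without AC 3 they were -0.43 (adjusted p = 0.0723) and -0.55 (0.0549), while 569 genes in all were then called. Relative to the mitochondrial mRNAs, 0 of 22 members and 7 genes in all (0.0408%; 0.0175% lower and 0.0233% higher) were called. Without AC 3, mt-Tp was called higher on that scale (0.77, adjusted p = 0.0330), where 918 of 17749 genes (5.17%) were called and 586 of them were higher.

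Nuclear genes that serve the mitochondrial genome were counted from lists chosen for their roles. In model tumours against colon, 7 of 18 tested genes of mitochondrial transcription and DNA maintenance rose and 3 fell, beside 36.8% of all genes higher and 32.9% lower. Without scaling factors 49.7% of all genes were higher and 24.2% lower, and the list counts at that setting stand beside those shares. Twnk, the replicative helicase, rose by 1.39 and Mgme1, a nuclease of mitochondrial DNA, by 1.42. Polg2, the accessory subunit of the DNA polymerase, fell by 1.37. For RNA processing, stability and turnover 7 of 18 rose and 3 fell (12 and 1 without scaling factors, and 11 and 1 for transcription). Lrpprc, which binds and stabilises mitochondrial mRNAs, rose by 1.04, Elac2, which cuts the 3′ ends of tRNAs from precursors, rose by 1.26, and Ptcd2 fell by 2.07. For rRNA and tRNA modification 7 of 17 rose, among them Pus1 (1.46) and Gtpbp3 (1.35), and 2 fell (13 and 1 without scaling factors).

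Of the proteins of the mitochondrial ribosome, 39 of 77 tested fell and 7 rose, with a median of -0.55. This depends on scaling, since without scaling factors 19 were lower and 14 higher. Mrpl10 fell by 1.47 and Mrps31 by 1.42, and Mrps10 rose by 1.56. Of the insertion and assembly factors of the encoded subunits, 25 of 37 fell and 2 rose (11 and 5 without scaling factors), with a median of -0.85. Sco1 and Coa3, which act in cytochrome c oxidase assembly, fell by 2.73 and 2.43, from 22.1 FPKM ± 0.195 to 5.06 ± 0.278 and from 85.3 ± 4.35 to 24.2 ± 1.97. The higher calls of Bcs1l (0.75) and Cox18 (0.85) were lost on leaving out 1 library (adjusted p up to 0.0833 and 0.0625).

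Of translation factors and tRNA synthetases 5 of 28 rose and 10 fell (15 and 4 without scaling factors), with Tars2 rising by 1.80 and Gfm2 falling by 1.23. Among 13 transcriptional regulators of mitochondrial biogenesis 3 rose and 6 fell (5 and 5 without scaling factors). Ppargc1a and Ppargc1b, coactivators of mitochondrial biogenesis, fell (-2.70 and -3.01), while Pprc1, a related coactivator, rose by 3.10 and Myc by 3.41. Of 16 genes of mitochondrial mass and import 6 rose and 5 fell (10 and 4 without scaling factors). The chaperones Hspa9 and Hspd1 rose by 1.78 and 1.32, and the outer-membrane channels Vdac2 and Vdac3 fell by 1.79 and 1.92. No list had a median as low as that of the mitochondrially encoded genes (-2.20).

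**Figure D5:**
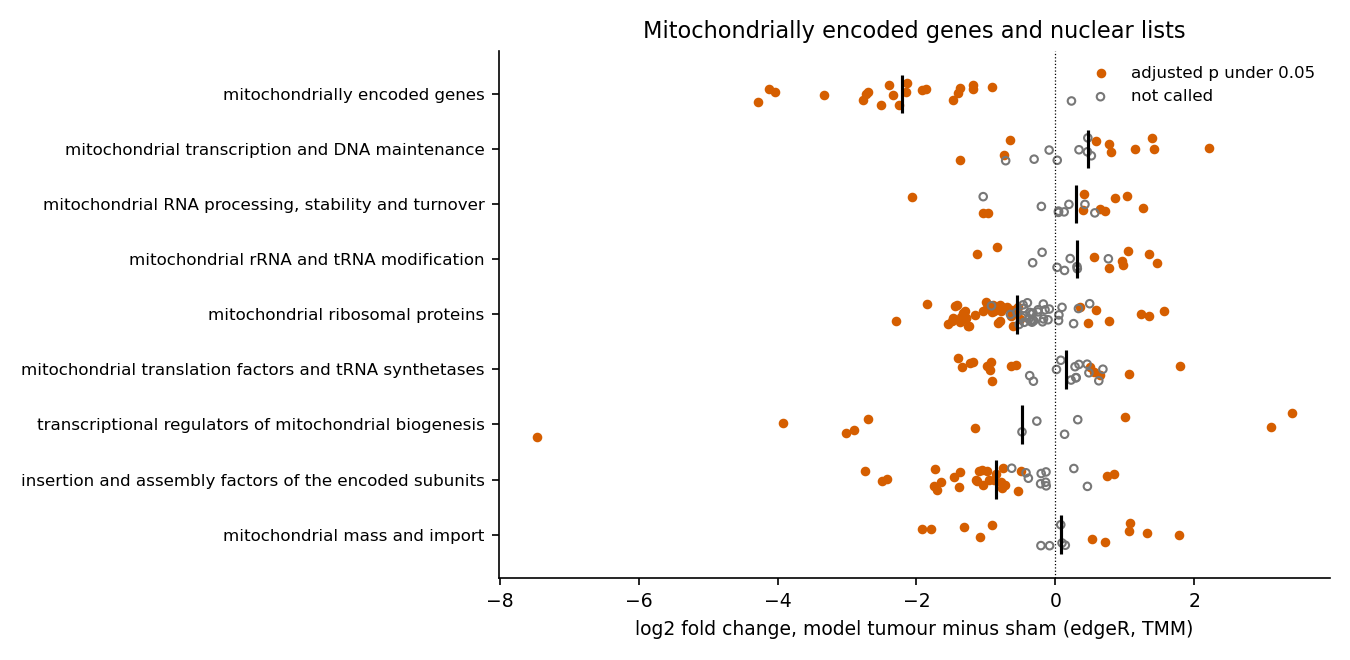
log2 fold change in model tumours against sham (edgeR, TMM) for the 22 tested mitochondrially encoded genes and for the tested genes of 8 nuclear lists; each point is 1 gene, filled where the adjusted p was under 0.05, and the black bar is the list's median. The top row has a median of -2.20, and the assembly factors follow at -0.85.

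In AC tumours against the same colon libraries the counts were 10 higher and 2 lower of 18 for transcription and DNA maintenance, 6 and 3 of 18 for RNA processing and 8 and 2 of 17 for RNA modification. They were 9 and 35 of 77 for the mitochondrial ribosome, 6 and 9 of 28 for translation factors, 3 and 7 of 13 for biogenesis regulators, 2 and 22 of 37 for assembly factors and 6 and 4 of 16 for mass and import. Beside these, 35.5% of all genes were higher and 32.7% lower. Without scaling factors the ribosomal proteins were 20 higher and 12 lower, the assembly factors 6 and 9, transcription 13 and 1, RNA processing 14 and 1, RNA modification 13 and 1, translation factors 15 and 4, regulators 6 and 4, and mass and import 10 and 4. Over all genes at that setting 49.5% were higher and 23.1% lower. The call of Ppargc1a (-3.00) was lost on leaving out 1 library (adjusted p up to 0.0843), with 0.0508, 0.145 and 0.868 FPKM in AC 1, 2 and 3. In none of the 8 lists was a gene called between AC and model tumours.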

How the data were processed

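Gene expression was measured by RNA-seq in 9 libraries, with Trizol extraction and the VAHTS Universal V6 kit per the labels' protocols. The authors deposited a table of raw counts, for which featureCounts 1.5.0-p3 is named per the submitters' processing notes. The authors also deposited FPKM values. For the aligner and the strand setting: not given in the sources used here. The notes name mm9. Gene lengths implied by counts and FPKM matched GENCODE M21 (GRCm38) within 1% for 31 of 31 members with a count. That check covers mitochondrial genes only, so it does not show which build was aligned to. Positions are given on GRCm38, the build of the annotation used here.

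Every comparison was fitted to the 6 libraries it concerns, using edgeR 4.0.16 (R 4.3.3; TMM, filterByExpr, robust quasi-likelihood fit, Benjamini-Hochberg over all genes tested, threshold 0.05). DESeq2 1.42.0, other scalings, no filter, leaving out each library and a replicate block were alternatives. Nuclear copies were genes matching the mitochondrial sequence over at least 80% of their length at 90% identity or more (blastn 2.17.0). All mRNAs and rRNAs were named, tRNAs by counts, and up to 2 called genes per list and direction by smallest adjusted p in model against sham. The members and lists were chosen with earlier results of these data known. The tests were tested on simulated data.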

Additional observations from a re-analysis of the deposited data

How the results depend on the processing

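In both comparisons with colon no member was called higher under any alternative run. The count of fallen members was 17 (no scaling factors, 24.2% of all genes lower) to 25 (no filter, 20.5%) in model tumours, 19 to 22 on leaving out 1 library, and 18 to 25 (23.1% and 19.8%) under the same settings in AC tumours, 20 to 21 on leaving out 1 library. For AC against model tumours edgeR called 0 genes of all, against 305 by DESeq2, 105 with no filter, 569 without AC 3 and 94 without model 1 and AC 3, and no member in any of these. Counts were few for the tRNAs other than mt-Tp, and for mt-Nd3, mt-Nd4l and mt-Atp8.

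Relative to the mitochondrial mRNAs the counts moved more. In model against sham 8 were lower and 5 higher, with 5 lower when the scale was the summed mRNA counts (11.6% of all genes lower). There were 3 higher without mt-Co1 in the scale (70.4% of all genes higher) and 1 higher (65.7%) with the 5 mRNAs that lack a near-identical copy, a scale chosen after seeing the data, as was the addition of copy counts. Leaving out 1 library gave 8 to 16 called and 2 to 6 higher, beside 77.6% to 88.9% of all genes called and 65.4% to 73.1% higher. mt-Te, a gene of few counts, was called higher in those runs where it passed the filter (2.02 to 2.69, adjusted p = 0.00689 to 0.0292). In AC against sham mt-Te was likewise higher (2.30 to 2.96, adjusted p = 0.00575 to 0.0188), beside 67.3% to 73.9% of all genes. In AC against sham the 5-mRNA scale gave 11 lower and 0 higher, beside 15.5% and 66.1% of all genes. In AC against model leaving out 1 library gave 0 to 1 called, and 0 to 1 higher, the 1 being mt-Tp without AC 3, where 5.17% of all genes were called. mt-Cytb in model against sham was -0.0429 with the 5-mRNA scale, of which it is part, as are mt-Nd2, mt-Nd5 and mt-Nd6. The cause was not tested.

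mt-Nd4l in model against sham was -0.38 with copy counts added, and -0.15 to 0.45 on leaving out 1 library. Relative to the mRNAs, uncalled values near 0 in the comparisons with colon also changed sign on leaving out 1 library: in model against sham mt-Nd3 (-0.30 to 0.49) and mt-Nd4 (-0.10 to 0.11), and in AC against sham mt-Nd3 (-0.27 to 0.51) and mt-Tl2 (-0.30 to 0.25). On the whole-library scale the other changes of sign were in AC against model, where no member was called. On leaving out 1 library the log2 values ran from -0.43 to 0.24 for mt-Rnr1, -0.55 to 0.0561 for mt-Rnr2, -0.23 to 0.0039 for mt-Nd1, -0.0349 to 0.0203 for mt-Nd2, -0.10 to 0.0938 for mt-Atp6, -0.10 to 0.13 for mt-Co3, -0.18 to 0.0379 for mt-Nd3 and -0.0158 to 0.0585 for mt-Nd6. They ran from -0.42 to 0.27 for mt-Tc, -0.13 to 0.0455 for mt-Th, -0.13 to 0.41 for mt-Tl2 and -0.25 to 0.41 for mt-Te. Without model 1 and AC 3 together they were -0.50 for mt-Rnr1, 0.0086 for mt-Nd1, -0.0015 for mt-Tl2 and -0.16 for mt-Te. With copy counts added mt-Atp6 was -0.0161 and mt-Nd3 0.16, and mt-Nd2 was 0.0214 without scaling factors.

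Replicate numbers are shared by the groups. For model and sham the correlation of same-numbered libraries, after removing group means, was -0.05, -0.01 and -0.08. It was 0.12, -0.01 and 0.08 for AC and sham, and -0.49, 0.41 and -0.35 for AC and model. Differently numbered AC and model libraries ran from -0.52 (AC 3 with model 2) to 0.65 (AC 3 with model 1). Deviations from a group mean cancel within 3 libraries, so these values cannot settle whether numbers pair the samples. With the replicate block 20 members fell in model tumours and 20 in AC tumours, 3 were higher relative to the mRNAs in model against sham (70.2% of all genes higher), and mt-Rnr1 in AC against model was -0.0494.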
